A study of Mus musculus with 22 samples.

Results

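The regions described here are CpG-sparse tiles, 1000-base windows of the mouse autosomes in which few cytosines were measured. Autosomal cytosine positions listed in all 12 methylation libraries, 743808 in number, were binned into windows of 1000 bases, and the 17288 windows with 3 to 5 such positions were taken out of the 65512 windows with at least 1. The strands of a CpG were counted apart, so the 66380 positions in these tiles stood for 62803 CpGs. Of the remaining windows, 32531 held more than 5 positions and 15693 held 1 or 2. The tile level is the mean percentage of methylated reads over the positions of a tile in 1 library. The choice used the number of positions and no methylation value.

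Methylation was measured by reduced representation bisulfite sequencing (RRBS), in which genomic DNA is cut by an enzyme at CpG-containing sites and unmethylated cytosines are read as thymine, and RNA was sequenced from separate samples of the same 4 kinds of cell. NMDA cells were Müller glia sorted by flow cytometry from C57BL/6 retinas of mice aged 2 to 3 months, which carried an Rlbp1-GFP reporter and had received intravitreal NMDA 2 days earlier. Aged cells were Müller glia of reporter mice aged 1.5 years, without NMDA. RPC samples were retinal progenitor cells of embryonic day 12.5, for which the labels name neither a sort nor the reporter. Young cells, to which the others were compared, were Müller glia of untreated reporter mice aged 2 to 3 months. Each group had 3 RRBS libraries, called biological replicates by the submitters, and RNA came from 3 NMDA, 2 aged, 3 RPC and 2 young libraries.

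DNA methylation in mammals sits mostly on CpG dinucleotides. CpG islands at active promoters are usually unmethylated, whereas isolated CpGs in gene bodies, in introns and between genes are usually methylated unless a regulatory element there is bound by transcription factors. Müller glia are the main glia of the retina, arise late from the progenitors that also give rise to retinal neurons, and react to excitotoxic loss of inner neurons, for which NMDA is a common model.

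Few of the tiles lay wholly inside a promoter, so the sequences that could be shown were those of promoter windows, 300 bases from 250 before to 50 after a RefSeq gene start (build GRCm38.p6), that contained every position of a tile. Among windows of named genes whose tile was called between RPC and young cells and whose libraries did not overlap, 11 were higher and 3 were lower in RPC. The 3 with the greatest gain and the 1 with the greatest loss are printed 5′ to 3′ along the gene, with the measured CpGs in capitals, to show how few CpGs carry a tile level. They were chosen after their values were seen. They lie at chr3:88371430-88371729 (minus strand, Bglap3, an osteocalcin-related gene), chr12:100778807-100779106 (plus strand, Dglucy, D-glutamate cyclase), chr10:40629761-40630060 (plus strand, Ddo, D-aspartate oxidase) and chr4:108030937-108031236 (minus strand, Podn, a proteoglycan of the extracellular matrix).
Bglap3: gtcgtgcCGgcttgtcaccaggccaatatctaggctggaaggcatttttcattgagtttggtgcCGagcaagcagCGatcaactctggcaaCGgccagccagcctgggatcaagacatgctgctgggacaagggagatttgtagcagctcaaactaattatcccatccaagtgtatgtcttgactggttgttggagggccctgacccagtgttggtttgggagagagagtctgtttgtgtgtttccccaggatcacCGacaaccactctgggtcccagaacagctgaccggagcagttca
Dglucy: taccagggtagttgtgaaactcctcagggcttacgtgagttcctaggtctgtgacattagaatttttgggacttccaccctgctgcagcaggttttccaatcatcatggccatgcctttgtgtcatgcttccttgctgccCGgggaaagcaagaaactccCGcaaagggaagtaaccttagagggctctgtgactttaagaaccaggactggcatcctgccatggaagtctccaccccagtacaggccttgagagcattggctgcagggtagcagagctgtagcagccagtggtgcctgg
Ddo: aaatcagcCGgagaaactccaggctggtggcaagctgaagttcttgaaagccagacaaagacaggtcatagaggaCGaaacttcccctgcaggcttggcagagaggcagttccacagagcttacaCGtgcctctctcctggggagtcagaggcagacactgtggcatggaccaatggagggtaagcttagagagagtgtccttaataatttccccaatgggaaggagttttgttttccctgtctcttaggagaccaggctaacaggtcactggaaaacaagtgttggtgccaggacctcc
Podn: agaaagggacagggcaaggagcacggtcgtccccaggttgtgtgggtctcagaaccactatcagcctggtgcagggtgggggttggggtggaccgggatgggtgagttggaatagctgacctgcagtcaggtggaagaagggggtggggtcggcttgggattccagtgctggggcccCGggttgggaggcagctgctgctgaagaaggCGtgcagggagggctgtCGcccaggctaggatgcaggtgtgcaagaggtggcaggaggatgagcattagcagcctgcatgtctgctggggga

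The Bglap3 window held 7 CpGs and the Podn window 7, whereas the Dglucy and Ddo windows held 3 each. All 279 promoter windows that contained every position of a CpG-sparse tile held the letters CCGG, the cutting site of the enzyme MspI that standard RRBS uses, against 53.5% of all 31396 promoter windows (CCGG reads the same on both strands). Their median CpG count was 15, against 7 over all windows, so few measured positions did not always mean few CpGs.

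The tile in the Bglap3 promoter had levels of 14.9, 67.2 and 59.3% in NMDA libraries, 17.7, 18.8 and 12.6% in aged libraries, 93.0, 98.8 and 93.1% in RPC libraries and 2.5, 6.0 and 5.51% in young libraries. RPC libraries were thus almost fully methylated and young libraries almost unmethylated, without overlap, and NMDA libraries spread widely between them. The gain in RPC over young was 90.3 points (percentage points; adjusted p = 1.89e-06, quasi-binomial model), on 10 to 58 reads per position. The Ddo tile had 34.8, 33.2 and 59.1% in NMDA, 21.8, 10.2 and 0.853% in aged, 73.5, 82.5 and 83.6% in RPC and 3.98, 15.7 and 7.28% in young libraries. All RPC libraries lay above all others there, and Ddo RNA was 0.0822 ± 0.0116 CPM (read counts scaled to a common library total; SD, n = 3) in RPC against 18.7 ± 13.9 CPM in young cells (n = 2; log2 fold change -7.83 ± 0.68 SE, edgeR adjusted p = 1.69e-05).

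The Dglucy tile averaged 16.1 ± 11.6% in NMDA, 3.42 ± 0.866% in aged, 87.2 ± 3.34% in RPC and 11.1 ± 4.61% in young libraries (SD, n = 3 each). Podn went the other way, with 25.2 ± 4.34% in NMDA, 32.2 ± 6.90% in aged, 2.89 ± 0.794% in RPC and 33.1 ± 5.12% in young libraries. Podn RNA did not pass the test between RPC and young cells (edgeR adjusted p = 0.538), at 2.55, 3.89 and 3.06 CPM in RPC against 0 and 12.5 CPM in young libraries. RNA of Dglucy was not analysed here.

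The libraries differed in ways that bear on every comparison with young cells. In tiles with more than 20 positions, which are mostly unmethylated, the median level was 0.783 to 0.846% in NMDA, 0.431 to 0.505% in aged, 0.661 to 1.97% in RPC and 2.85 to 3.75% in young libraries. Mitochondrial cytosines were listed at a mean of 0.292 to 0.774% in NMDA, 0.181 to 0.263% in aged, 1.67 to 7.30% in RPC and 4.76 to 29.4% in young libraries. Young libraries therefore carried a higher reading at sites of low methylation, and small losses against young at such sites cannot be told apart from it. Young replicate 1 stood apart: it had 39 reads at the median position of the sparse tiles, against 51.8 to 97.2 in the other libraries, and correlated with the other young libraries at r = 0.926 to 0.927 over the tiles, whereas those correlated with each other at 0.973. In the RNA, young libraries were listed at 0 for 4508 and 5501 of the 18931 genes tested, against 401 to 1008 in the other groups.

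Marker genes in RNA separated sorted Müller glia from progenitors and also showed RNA of other cells. Rlbp1, which encodes the retinoid-binding protein whose promoter names the reporter, had 1078 ± 375 CPM in NMDA, 2944 ± 210 CPM in aged, 4.48 ± 2.07 CPM in RPC and 3780 ± 650 CPM in young cells. The 22 photoreceptor genes summed to 9005 to 14464 CPM in NMDA, 6830 to 10290 CPM in aged, 31.8 to 40.3 CPM in RPC and 10919 to 16158 CPM in young libraries. In RPC, 6 of them (Pde6b, Cnga1, Arr3, Opn1sw, Opn1mw and Gngt1) were at 0. The 16 microglia and macrophage genes summed to 443 to 4116 CPM in NMDA, 142 to 159 CPM in aged, 94.5 to 118 CPM in RPC and 30.7 to 157 CPM in young libraries, and Aif1, Trem2 and Ptprc were at 0 in young. The young libraries also listed 11 of 16 vascular and pigment genes at 0, Pecam1 and Cdh5 among them, while the list summed to 3713 to 3887 CPM there, so a 0 in young does not show that a cell type was absent. The part of other cells in the methylation values was not tested, and in bulk DNA a changed mix of cells cannot be told apart from a change within the cells.

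CpG-sparse tiles were more methylated in RPC than in any Müller group. The mean level over the 17288 tiles was 62.9, 62.7 and 64.1% in NMDA libraries, 59.1, 60.2 and 58.3% in aged libraries, 66.1, 66.4 and 66.3% in RPC libraries and 56.9, 61.0 and 60.1% in young libraries. Every RPC library lay above every Müller library, every NMDA library lay above every aged and young library, and aged and young libraries overlapped. The group means were 63.2 ± 0.779% in NMDA, 59.2 ± 0.967% in aged, 66.3 ± 0.169% in RPC and 59.3 ± 2.16% in young cells (SD, n = 3 each), a range of 7.10 points between groups (exact permutation test over 369600 assignments of 12 libraries, p = 0.000714). RPC exceeded the 9 Müller libraries by 5.71 points (two-sided exact permutation test, p = 0.00455, the smallest that 220 assignments allow). An exact permutation test between groups of 3 cannot go below p = 0.1, so no pair was tested on this value.

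The gap between progenitors and Müller glia was wider in the sparse tiles than in denser ones. Tiles with more than 5 positions averaged 33.8 ± 0.530% in NMDA, 31.3 ± 0.426% in aged, 34.6 ± 0.390% in RPC and 32.8 ± 0.921% in young libraries. The sparse tiles stood above the denser ones by 29.5 ± 0.298 points in NMDA, 27.9 ± 0.544 in aged, 31.7 ± 0.220 in RPC and 26.6 ± 1.31 in young libraries. This excess was 3.70 points greater in RPC than in Müller glia (two-sided exact permutation test, p = 0.00455). The difference remained 3.33 points without young replicate 1. Tiles with 1 or 2 positions averaged 68.2% in NMDA, 62.9% in aged, 71.98% in RPC and 62.7% in young cells. In that order the means were 59.3, 55.5, 61.7 and 55.9% at 5 positions and 59.9, 56.2, 62.3 and 56.5% at 6. At 21 to 190 positions they were 7.57, 6.62, 7.31 and 8.96%, where RPC lay below NMDA and young. The gap was thus not particular to tiles with 3 to 5 positions, and it was similar at 5 and 6.

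**Figure D1:**
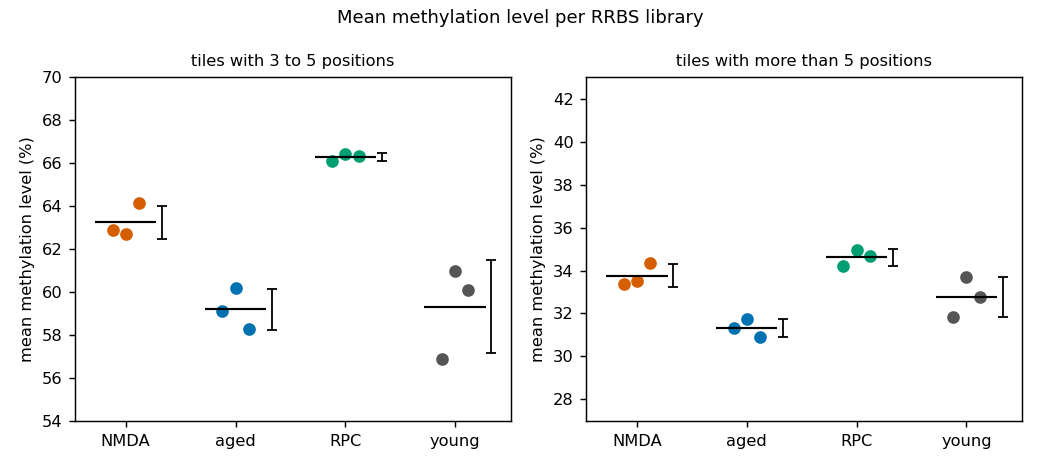
Mean methylation level (%) of each RRBS library over tiles with 3 to 5 positions (left) and over tiles with more than 5 positions (right); both axes span 16 points and start above 0. Points are libraries, horizontal lines are group means and the bars beside them are 1 SD. In the sparse tiles RPC libraries lie at 66.1 to 66.4%, above all others, and young replicate 1 lies lowest at 56.9%.

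The tiles were mostly either methylated or unmethylated. In RPC libraries 54.5 to 54.9% of them were above 80%, against 47.6 to 48.1% in NMDA, 43.5 to 46.6% in aged and 36.2, 45.8 and 44.97% in young libraries. In RPC 27.02 ± 0.408% of the tiles lay between 20 and 80%, against 34.1 ± 1.36% in NMDA, 31.0 ± 0.855% in aged and 34.0 ± 4.58% in young libraries. In all, 6707 tiles (38.8%) averaged above 80% in all 4 groups, 2457 (14.2%) averaged below 20% in all 4, 2945 (17.0%) stayed between these bounds in all 4, and 5179 (30.0%) crossed a bound.

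**Figure D2:**
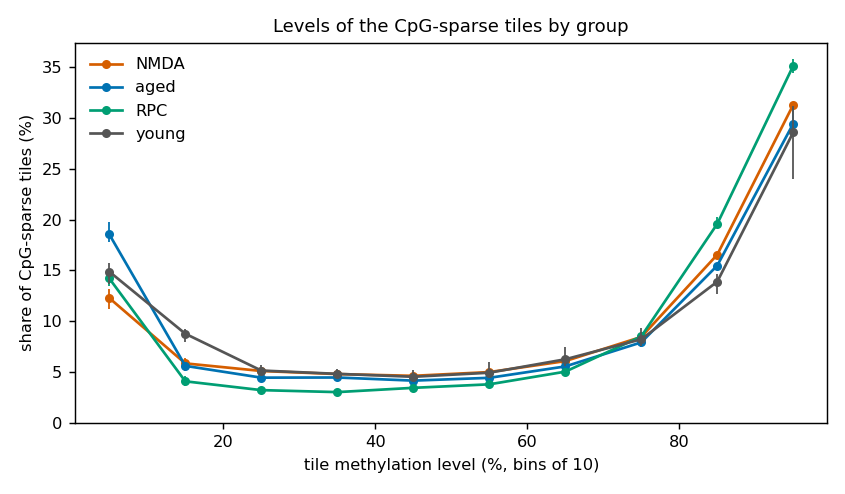
Share of the 17288 CpG-sparse tiles (%) in each bin of 10% of tile level, drawn at the middle of the bin; points are means of 3 libraries and vertical lines run from the lowest to the highest library. RPC has the highest share in the top bins, and the young range in the top bin is wide.

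The measurements within a tile lay close together and varied little between strands. The positions of a tile spanned a median of 120 bases, and in 98.0% of the tiles they spanned under 300, so a tile level describes a short stretch and not the whole window. For the 3577 CpGs read on both strands the median difference between strands was 5.08 points, with r = 0.993 over these CpGs. Between libraries, tile levels in RPC correlated best with NMDA replicate 3, at r = 0.897 to 0.901 over the tiles, against 0.880 to 0.891 for the other NMDA libraries, 0.837 to 0.861 for aged and 0.794 to 0.843 for young libraries.

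The sparse tiles were far from promoters more often than the dense ones. Of those on the autosomes with start sites in the annotation used, 1772 (10.6%) lay within 1000 bases of a start site, 8973 (53.5%) lay inside a gene farther from a start site and 6016 (35.9%) lay outside genes. Among tiles with more than 5 positions, 37.0% lay within 1000 bases of a start site. Tiles near a start site averaged 24.8% in NMDA, 22.0% in aged, 26.98% in RPC and 24.6% in young cells, whereas those outside genes averaged 71.2% in NMDA, 67.7% in aged, 73.8% in RPC and 67.3% in young cells. The 527 sparse tiles of chromosome 18 were not placed.

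Single tiles were tested in 1 model over all 65495 tiles with any variation, a quasi-binomial fit of methylated reads, with p-values adjusted over all of them (Benjamini-Hochberg). A tile was called at an adjusted p under 0.05 and a difference of at least 10 points between group means. Between RPC and young cells 3283 of the 17288 sparse tiles were higher and 770 were lower in RPC, or 19.0% and 4.45%; over all tiles tested 17.1% were called, 13.6% higher and 3.46% lower. The median difference over all sparse tiles was 1.70 points. Without young replicate 1, 2891 were higher and 758 lower.

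The tiles higher in RPC, chosen for that gain, averaged above 80% in RPC in 45.8% of cases and between 20 and 80% in 53.5%. In young cells 36.3% of these tiles averaged below 20% and 61.5% between 20 and 80%. Their median level was 49.0% in NMDA, 32.8% in aged, 77.9% in RPC and 30.7% in young cells, and their median gain in RPC over young was 31.4 points (quartiles 19.9 and 49.8). In 811 of them the gain was at least 50 points, and in 80.8% all positions of the tile moved the same way. Libraries did not overlap between RPC and young in 96.1% of them, whereas 38.9% of all sparse tiles and 44.9% of all tiles showed no overlap. Few overlaps, and positions that move together, follow in part from a call on these same libraries. Tiles lower in RPC were at a median of 44.0% in NMDA, 40.4% in aged, 14.7% in RPC and 43.4% in young cells, with a median difference of -19.7 points, and 27 of them fell by 50 points or more.

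Gains in RPC were found in each kind of location. They made up 21.4% of sparse tiles inside genes away from start sites, 17.3% of those outside genes and 12.6% of those within 1000 bases of a start site. By chromosome the share ranged over the autosomes from 15.4% on chromosome 6 to 22.1% on chromosome 12. Adjoining windows with more than 5 positions were not used to choose these tiles. Next to tiles higher in RPC the median of 360 such neighbours was 8.65 points higher in RPC than in young, and 46.4% of them were called higher; over all windows with more than 5 positions the median was -1.58 points and 9.23% were called higher. Of the 770 tiles lower in RPC 173 had a neighbour. The median of these 184 neighbours was -3.40 points, and 22.8% were called lower, against 3.39% over all windows with more than 5 positions. The neighbours were not matched to those windows by location. Of all such windows 2.03% were called higher in RPC near a start site, 14.3% farther inside genes and 11.9% outside genes.

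The greatest gains in RPC lay in genes of many functions. Levels near full methylation in RPC and near 0 in young cells follow from choosing these tiles by the size of the gain. The tile in Pik3r2 (chr8:70774000-70774999, a regulatory subunit of phosphoinositide 3-kinase) had 2.05, 13.1 and 21.7% in NMDA, 4.51, 1.39 and 0% in aged, 92.2, 98.0 and 97.6% in RPC and 0.757, 2.56 and 4.31% in young libraries. RPC libraries lay far above all others, a gain of 93.4 points over young (adjusted p = 5.14e-09). The tile in Acsf3 (chr8:122793000-122793999, a mitochondrial acyl-CoA synthetase) had 49.6, 16.5 and 27.4% in NMDA, 3.27, 1.93 and 0% in aged, 94.7, 94.8 and 97.3% in RPC and 0, 10.8 and 0% in young libraries. There NMDA libraries also lay above all aged and young libraries.

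Similar gains were found in Nqo1 (a quinone reductase, 91.4 points), the Bglap3 promoter shown above and Papss2 (a supplier of activated sulfate, 90.1 points). For Papss2 (chr19:32651000-32651999) levels were 20, 36.8 and 62.4% in NMDA, 1.75, 7.28 and 4.42% in aged, 96.3, 95.3 and 93.8% in RPC and 4.3, 7.22 and 3.49% in young libraries. Young and aged libraries were alike low and NMDA libraries lay between them and RPC without overlap. Its RNA was lower in RPC than in young cells by a log2 fold change of -5.87 ± 0.46 (edgeR adjusted p = 9.63e-06). RNA of Pik3r2 and Acsf3 was also lower, at -0.77 ± 0.21 (adjusted p = 0.0113) and -1.08 ± 0.16 (adjusted p = 0.000368).

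At the 6 greatest named losses, chosen by their fall from young to RPC, the tile was low in every RPC library and mostly methylated in every Müller library. The tile in Meis2 (chr2:116060000-116060999, a TALE homeobox factor) had 80.7, 68.5 and 68.9% in NMDA, 91.0, 89.3 and 100% in aged, 5.75, 6.35 and 9.51% in RPC and 79.3, 94.9 and 88.8% in young libraries. Only RPC was unmethylated, a difference of -80.5 points from young (adjusted p = 5.90e-08). The tile in Tbx1, a T-box factor (chr16:18585000-18585999), had 3.38, 3.75 and 2.43% in RPC against 78.2, 77.6 and 79.1% in young libraries, a difference of -75.1 points. Next came Tbx3os1, an antisense gene beside the T-box gene Tbx3 (-66.6 points), Zfhx3, a zinc finger homeobox factor (-66.1 points), Mir193a, a microRNA gene (-65.8 points), and Ebf1, an early B-cell factor (-63.9 points). All NMDA and aged libraries lay above all RPC libraries at each of these 6 tiles.

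Genes of the Müller glia list, like the sparse tiles as a whole, carried more gains than losses in RPC and NMDA. Of its 26 genes, 10 had a sparse tile in or within 5000 bases of the gene, 34 tiles in all, of which 16 were higher and 2 were lower in RPC than in young cells, 15 were higher and 0 lower in NMDA, and 0 were higher and 1 lower in aged. Their median difference from young was 13.7 points in NMDA, -2.73 in aged and 8.99 in RPC, against 1.76, -0.886 and 1.70 points over all sparse tiles. Of all sparse tiles 19.0% were higher and 4.45% lower in RPC, 9.74% and 1.06% in NMDA, and 0.792% and 0.972% in aged. The NMDA count was 9 without NMDA replicate 3 and 13 without young replicate 1, and limma on the tile levels gave 8. The 1 aged call, at Nfib, was lost without aged replicate 1 or 2 or young replicate 2, at -9.28, -9.91 and -9.09 points, after rescaling, at -7.55 points, and with at least 20 reads per position, at -5.94 points. The nuclear factor I genes Nfia, Nfib and Nfix, which promote glial fate, supplied 15 of the 34 tiles. The other 7 genes had 19, with 7 higher in RPC and 8 higher in NMDA. Nfix alone supplied 6 of the 16 gains in RPC and 6 of the 15 in NMDA. In RNA, 24 of the 26 genes were lower in RPC than in young cells (edgeR, adjusted p under 0.05) and none was higher. In NMDA 5 were higher and 11 lower. Over all genes tested in RNA, 60.8% were called for RPC and 44.9% for NMDA.

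Kcnj10, an inwardly rectifying potassium channel of Müller glia, had 3 sparse tiles. Against young, 3 of them were higher in NMDA and 2 in RPC. The tile at chr1:172342000-172342999 lies 1537 bases downstream of the start site. Its levels were 42.8, 19.6 and 34.9% in NMDA, 3.33, 3.10 and 4.78% in aged, 93.8, 89.1 and 86.0% in RPC and 8.04, 14.2 and 7.31% in young libraries. RPC lay highest, NMDA lay above all aged and young libraries, and aged lay lowest, so that no groups overlapped. The gain over young was 79.8 points in RPC (adjusted p = 6.08e-09) and 22.6 points in NMDA (adjusted p = 0.000585). Kcnj10 RNA was 905 ± 179 CPM in NMDA and 0.418 ± 0.134 CPM in RPC, against 1030 ± 30.1 CPM in young cells; it was lower in RPC (log2 -11.41 ± 0.27, adjusted p = 5.27e-08) and did not pass in NMDA (-0.08 ± 0.17, adjusted p = 0.741).

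Slc1a3, the glutamate transporter of retinal glia, had 5 sparse tiles that did not move as 1 block. The tile at chr15:8663000-8663999 had 17.8, 15.6 and 30.9% in NMDA, 6.04, 12.1 and 9.54% in aged, 91.0, 82.5 and 92.5% in RPC and 17.4, 16.1 and 16.4% in young libraries. It was high in RPC and low elsewhere (72.1 points over young, adjusted p = 5.41e-08), and NMDA overlapped young. The tile at chr15:8685000-8685999 had 51.9, 65.5 and 62.1% in NMDA against 37.5, 26.1 and 30.8% in young libraries, while RPC lay at 42.3, 30.3 and 37.5% and overlapped young. Slc1a3 RNA was lower in RPC (log2 -5.50 ± 0.14, adjusted p = 5.72e-08) and did not pass in NMDA (-0.27 ± 0.12, adjusted p = 0.0993).

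Further tiles of the list, named after their values were seen, repeated the order RPC, NMDA, then aged and young. A tile in Dkk3, a secreted protein of the Dickkopf family (chr7:112149000-112149999), averaged 43.9% in NMDA, 20.97% in aged, 88.6% in RPC and 16.9% in young cells. Of 2 Dkk3 tiles, 2 were higher than young in RPC and 1 in NMDA. A tile near Sox8, a transcription factor of glia (chr17:25564000-25564999), averaged 36.7% in NMDA, 13.0% in aged, 88.6% in RPC and 19.9% in young cells. Of 2 Sox8 tiles, 1 was higher than young in RPC and 2 in NMDA. Among 8 tiles at Nfix, that at chr8:84766000-84766999 had 25.5, 38.8 and 42.1% in NMDA, 12.03, 11.3 and 3.44% in aged, 45.9, 54.1 and 44.2% in RPC and 12.6, 11.1 and 9.1% in young libraries; it was higher than young in RPC (adjusted p = 2.94e-07) and in NMDA (adjusted p = 0.000388).

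Other tiles left that order. At Nfib (chr4:82508000-82508999), 1249 bases from the gene, levels were 17.1, 36.7 and 50.6% in NMDA, 10.4, 8.82 and 6.35% in aged, 5.11, 6.73 and 7% in RPC and 7.89, 7.87 and 6.13% in young libraries. Only NMDA was raised, and its libraries spread widely (27.5 points over young, adjusted p = 0.000189). A further Nfix tile (chr8:84716000-84716999) was at 1.74, 0.273 and 0.22% in RPC against 61.5, 28.9 and 28.5% in young libraries, the greatest loss in RPC on the list.

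**Figure D3:**
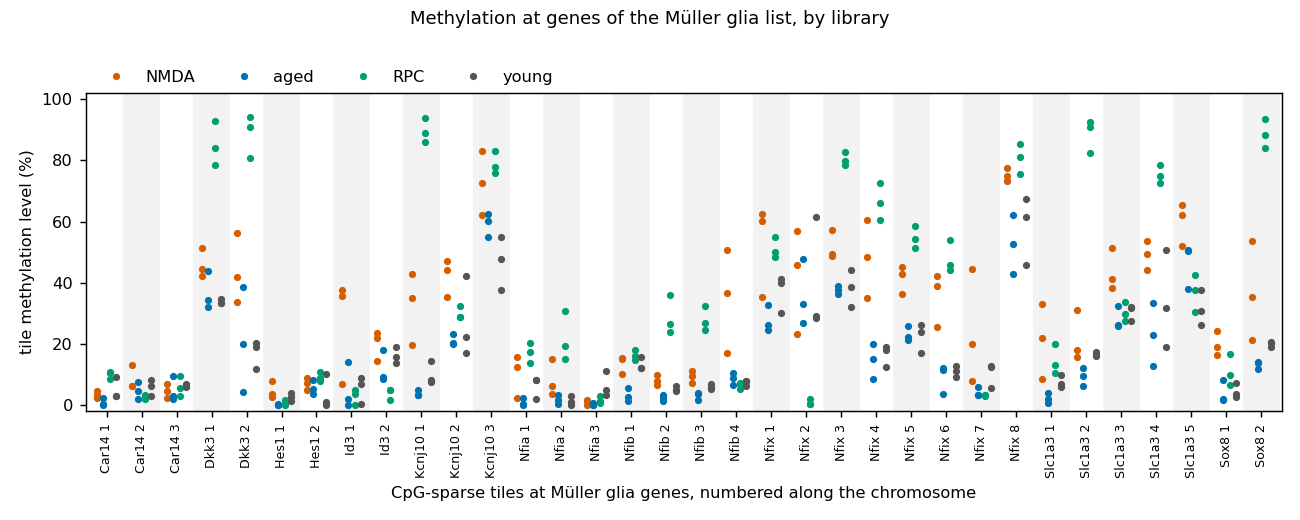
Tile methylation level (%) in each library at the 34 CpG-sparse tiles in or near genes of the Müller glia list, numbered along the chromosome within each gene; each point is 1 library and colours are groups. At Kcnj10 tile 1, Slc1a3 tile 2, Dkk3 tile 2 and Sox8 tile 2 all RPC libraries lie above 80% and all young libraries lie below 21%.

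The other lists had fewer called tiles. The 22 photoreceptor genes had 15 sparse tiles, of which 4 were higher and 0 lower in RPC, and 2 were higher and 1 lower in NMDA. Over all sparse tiles 19.0% were higher and 4.45% lower in RPC, and 9.74% higher and 1.06% lower in NMDA. In RNA all 22 genes were lower in RPC, against 24.9% of all genes tested.

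Genes of progenitors and early neurons showed both directions. The 22 progenitor genes had 23 tiles, with 3 higher and 4 lower in RPC and 4 higher in NMDA, where 19.0% of all sparse tiles were higher and 4.45% lower in RPC and 9.74% higher in NMDA. Pax6, an eye-field factor that Müller glia keep expressing, had 2 sparse tiles, of which 1 was called against young. The called tile (chr2:105696000-105696999) had 48.4, 60.5 and 62.3% in NMDA, 24.3, 28.6 and 16.6% in aged, 79.1, 79.9 and 80.7% in RPC and 20.95, 22.4 and 21.2% in young libraries. RPC lay above NMDA and NMDA above both other groups, and Pax6 RNA did not pass between RPC and young (log2 0.08 ± 0.16, adjusted p = 0.695). In NMDA the tile gained 35.5 points over young (adjusted p = 0.000246) and Pax6 RNA was lower than in young (log2 -0.66, adjusted p = 0.0103). The tile 3972 bases from Nr2f1, a nuclear receptor of dorsoventral and neural patterning (chr13:78184000-78184999), had 5.04, 11.8 and 14.0% in RPC against 66.5, 56.5 and 66.1% in young libraries, and Nr2f1 RNA was higher in RPC (log2 2.12 ± 0.14, adjusted p = 3.59e-06). Of the 26 neurogenic and early neuron genes 23 were higher in RPC in RNA, against 35.9% of all genes tested. Of their 25 tiles 1 was higher and 3 were lower in RPC.

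The remaining lists are given by count for RPC and then NMDA, each against young, to be read beside the shares over all sparse tiles: 19.0% higher and 4.45% lower in RPC, and 9.74% higher and 1.06% lower in NMDA. With so few tiles several counts are near these shares. Of 22 tiles at inner retinal neuron genes 0 were higher and 6 lower in RPC, and 1 was higher and 1 lower in NMDA. Of 22 tiles at Notch pathway genes 6 were higher and 0 lower in RPC, and 4 were higher and 0 lower in NMDA. Of 11 tiles at genes of gliosis and injury 1 was higher and 2 lower in RPC and 0 were called in NMDA. In RNA 15 of the 26 genes of this list were higher in NMDA, against 30.6% of all genes tested. Of 11 tiles at genes of the DNA methylation machinery 2 were higher in RPC, among them the tile 3514 bases from Uhrf1, the partner of the maintenance methyltransferase, and 1 was higher in NMDA. Microglia genes had 5 tiles with 1 higher in RPC and 0 called in NMDA, and vascular and pigment genes had 7 tiles, with 1 higher and 1 lower in RPC and 1 higher in NMDA.

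Sparse tiles called in NMDA were mostly higher than in young cells. Between NMDA and young cells 1684 sparse tiles were higher and 184 lower, or 9.74% and 1.06%, where 8.71% of all tiles were called, 7.85% higher and 0.857% lower. The median gain of the higher tiles was 21.3 points, and only 15 gained at least 50. Their median levels were 49.8% in NMDA, 27.4% in aged, 76.0% in RPC and 23.8% in young cells. NMDA replicate 3 was the highest of the 3 NMDA libraries in 63.0% of them. Without it 1096 tiles were higher and 133 lower; without NMDA replicate 2, 1256 were higher and 109 lower; without young replicate 1, 1306 were higher and 205 lower.

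The greatest gains in NMDA lay at tiles that were also high in RPC. The tile in Asb8, a SOCS box gene (chr15:98134000-98134999), had 74.4, 83.4 and 84.8% in NMDA, 34.0, 57.7 and 7.57% in aged, 91.0, 93.8 and 89.8% in RPC and 15.2, 0 and 15.0% in young libraries. NMDA and RPC were high and young low, and aged libraries were spread (70.8 points, NMDA over young, adjusted p = 0.00483, on 30 to 179 reads per library). The tile in Slc28a3, a nucleoside transporter (chr13:58558000-58558999), had 90.4, 66.7 and 85.7% in NMDA, 8.0, 59.7 and 29.3% in aged, 91.8, 94.0 and 87.5% in RPC and 11.1, 15.4 and 9.61% in young libraries. Similar gains over young were seen in Itgbl1 (an integrin-beta-like gene, 65.4 points), Pced1b (63.4 points), at the start of Cav3 (muscle caveolin, 57.6 points) and in Msi2 (an RNA-binding protein of progenitors, 55.7 points).

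Losses in NMDA had a median of -15.9 points. The tile in Gngt2, which encodes the cone transducin gamma subunit (chr11:95843000-95843999, also in Abi3), had 16.9, 21.7 and 13.5% in NMDA, 38.4, 40.6 and 27.5% in aged, 65.4, 71.3 and 60.3% in RPC and 64.4, 47.9 and 55.3% in young libraries. NMDA lay lowest without overlap (-38.5 points from young, adjusted p = 0.00116). Abi3 is known from microglia, whose genes were highest in the NMDA RNA libraries, at the sums given above; their part in this value was not tested. The tile in Golt1b, a Golgi transport gene (chr6:142413000-142413999), had 16.1, 16.1 and 16.5% in NMDA, 36.5, 22.2 and 28.3% in aged, 4.6, 5.03 and 10.3% in RPC and 56.9, 61.0 and 39.8% in young libraries, so that every other group lay below young. The losses at Slco4a1 (-38.2 points), Kcnh6 (-37.6), Slc39a14 (-29.6) and Ubtd1 (-29.4) lost their call without young replicate 2 for Slco4a1, Kcnh6 and Slc39a14 and without NMDA replicate 2 or young replicate 3 at Ubtd1, with adjusted p of 0.067, 0.0555, 0.0714, 0.0889 and 0.149 in that order. The Kcnh6 call was also lost without NMDA replicate 1 or 2 or young replicate 1 (adjusted p = 0.0541, 0.0754 and 0.0698), and the Slco4a1 call with at least 20 reads per position (adjusted p = 0.0648).

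Few sparse tiles were called between aged and young cells. In aged cells 137 tiles were higher and 168 lower than in young, or 0.792% and 0.972%, where 1.7% of all tiles were called, 0.565% higher and 1.14% lower. The higher tiles were at a median of 76.4% in aged against 51.2% in young cells, and the lower ones at 19.996% against 32.6%. The higher count was 79 without young replicate 1, 241 without young replicate 2 and 87 without aged replicate 1. The lower count was 97 when levels were rescaled by the level of dense tiles, an alternative added after the data were seen. Without the minimum of 10 points 1412 were lower in aged, beside the higher reading of young libraries at sites of low methylation.

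Of 14 named aged differences, 4 passed under every alternative and leave-one-out run for them, and the other 10 lost the call under at least 1. The tile in Itgbl1 (chr14:123723000-123723999) had 93.3, 89.5 and 78.8% in aged against 16.7, 36.04 and 36.8% in young libraries, and NMDA (93.7, 91.9 and 100%) and RPC (100, 100 and 97.5%) were as high as aged. The tile in Sbf2, a phosphoinositide phosphatase relative (chr7:110582000-110582999), had 69.97, 69.0 and 64.2% in NMDA, 54.6, 74.1 and 50.2% in aged, 96.2, 95.6 and 95.3% in RPC and 93.8, 96.1 and 92.0% in young libraries. Aged and NMDA were both below young there, without overlap. The others were Szrd1 (chr4:141126000-141126999, -29.7 points) and Ubtd1 (chr19:41997000-41997999, -28.2 points).

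**Figure D4:**
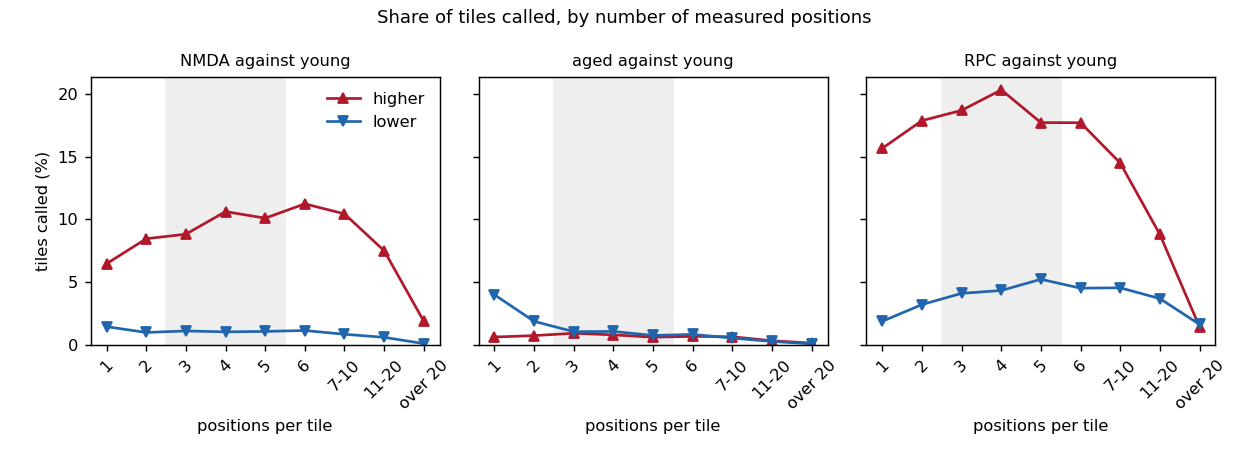
Share of tiles (%) called higher (upward triangles) or lower (downward triangles) in NMDA, aged and RPC cells, each against young cells, by the number of measured positions in the tile; the grey band marks the CpG-sparse tiles. For RPC the share higher is 20.3% at 4 positions and 1.42% at more than 20.

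The limits of 3 and 5 positions did not mark a break. Tiles with 2, 3, 5 and 6 positions were called between RPC and young in 21.1, 22.8, 22.9 and 22.2% of cases, between NMDA and young in 9.43, 9.91, 11.1 and 12.4%, and between aged and young in 2.59, 1.96, 1.34 and 1.49%. The mean level at 2, 3, 5 and 6 positions was 71.3, 68.4, 61.7 and 62.3% in RPC and 62.9, 61.1, 55.9 and 56.5% in young cells.

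The groups other than young were also compared with each other. Between RPC and NMDA 2089 sparse tiles were higher and 921 lower in RPC, where 12.9% of all tiles were called, 8.24% higher and 4.63% lower. Between RPC and aged 3251 were higher and 653 lower in RPC, where 16.6% of all tiles were called, 13.5% higher and 3.02% lower. Between NMDA and aged 1187 were higher and 29 lower in NMDA, where 5.79% of all tiles were called, 5.67% higher and 0.125% lower; that total of 1216 was 615 without NMDA replicate 3, 786 without NMDA replicate 2 and 716 without aged replicate 3.

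RPC against aged and NMDA against young share no library, and their calls were set side by side. The calls are not independent, because the spread of each tile was estimated over all 12 libraries for both. The shares over all sparse tiles also cover tiles with little room to gain, as 38.8% averaged above 80% in all 4 groups. Of the tiles higher in RPC than in aged, 1152 were also higher in NMDA than in young, which was 35.4% of the 3251 and 68.4% of the 1684, where 18.8% of all sparse tiles were higher in RPC than in aged. Those higher in RPC than in aged had library medians of 42.1, 41.2 and 49.1% in NMDA against 25.2, 28.6 and 27.4% in young. Of the 653 tiles lower in RPC than in aged, 23 were also lower in NMDA than in young (3.52% of these and 12.5% of the 184), and 52 were higher (7.96%); over all sparse tiles 1.06% were lower and 9.74% higher in NMDA, and 3.78% were lower in RPC than in aged. In those 653 tiles the library medians were 49.5, 47.9 and 50.5% in NMDA against 44.8, 47.1 and 46.7% in young, beside a median difference of 1.76 points, NMDA minus young, over all sparse tiles.

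The other pairing without shared libraries was described in the same way. Of the 3283 tiles higher in RPC than in young, 920 were among the 1187 higher in NMDA than in aged, 28.02% and 77.5% of each list. Over all sparse tiles 6.87% were higher in NMDA than in aged and 19.0% higher in RPC than in young. Without NMDA replicate 3 the number in both lists was 495 and without aged replicate 3 it was 566. Over the 17288 tiles the difference RPC minus aged correlated with NMDA minus young at r = 0.450, and RPC minus young with NMDA minus aged at r = 0.566. These are descriptions across tiles, which share libraries and are not independent replicates. The tiles higher in NMDA than in young had 201 adjoining windows with more than 5 positions, beside 196 of the 1684 tiles. The median difference of these windows was 11.3 points, and 48.8% of them were called higher, against 7.05% over all windows with more than 5 positions. By location the latter share was 1.60% near a start site, 11.1% farther inside genes and 8.61% outside genes.

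**Figure D5:**
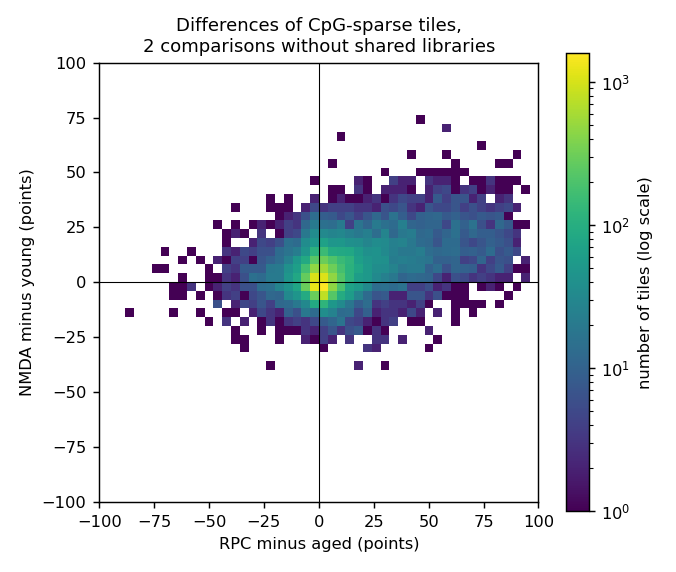
Number of CpG-sparse tiles (log colour scale) by their difference RPC minus aged (horizontal axis, percentage points) and NMDA minus young (vertical axis, percentage points), which share no library. Tiles with gains in RPC extend up the right side to gains in NMDA, and losses in RPC show no matching arm (r = 0.450 over 17288 tiles).

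RNA of genes in or within 5000 bases of the called tiles was described by group, since RNA and DNA came from separate samples. Genes with a tile higher in RPC, 1619 of them tested, were lower in RPC in RNA in 38.8% of cases and higher in 28.3%. Genes with any sparse tile were lower in 31.5% and higher in 33.2%, and all genes tested were lower in 24.9% and higher in 35.9%. Genes with a tile lower in RPC were higher in RNA in 39.4% and lower in 32.1% of 480. A limit of at least 10 CPM on average was added after the data were seen because of the many zeros in young libraries. Under it, genes with a tile higher in RPC were lower in RNA in 46.0% and higher in 24.8%. For genes with any sparse tile these shares were 38.6% and 29.7%, and for all genes 31.9% and 35.3%. With the same limit, genes with a tile lower in RPC were lower in RNA in 40.4% and higher in 36.02% of 322. For these genes the order was thus the reverse of that without the limit.

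For NMDA the 2 readouts were not opposed at genes with a higher tile. Genes with a tile higher in NMDA, 900 of them tested, were higher in RNA in 34.1% and lower in 19.4%, against 31.9% and 15.8% of genes with any sparse tile, and 30.6% and 14.3% of all genes. For aged cells 69 genes with a higher tile and 118 with a lower tile were tested, and 22 and 31 of them were higher in RNA, and 4 and 6 lower. Over all genes tested 27% were called in aged, 21.1% higher and 5.85% lower. No test was made of these shares.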

How the data were processed

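The deposited RRBS tables hold, per the file headers, the read count (coverage) at each cytosine position and the percent of those reads that kept C or became T; the RNA table holds deposited read counts per gene. Per the submitters' processing notes, Bismark 0.16.3, Trim Galore 0.4.3, methylKit 1.4.0 and HISAT2 2.0.4 were used with build mm10 (GRCm38); further settings were not used here. The lowest coverage listed was 10 reads in every library. RNA counts were read without knowledge of strand, and libraries held 10149390 to 36486072 counts.

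Tile reads were summed and fitted by a quasi-binomial model over 4 groups (Python 3.11.15, scipy 1.17.1), with overdispersion moderated towards 5.32 (prior df 6.33, residual df 8) and F tests per pair; 17 tiles without variation were left out. The procedure was tested on simulated data. RNA was tested with edgeR 4.0.16 (quasi-likelihood, TMM normalization, all 10 libraries); limma 3.58.1 and DESeq2 1.42.0 were alternatives. Tile and RNA p-values were adjusted by Benjamini-Hochberg, and those of the permutation tests were not. The tile and RNA tests set a group difference against a spread estimated from these libraries. The permutation tests reassigned libraries to groups.

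Tiles were linked to RefSeq genes of GRCm38.p6, and at 118351 of 118351 positions in promoter windows the base was the one the strand requires. Named tiles were, per comparison with young, the 6 greatest gains and losses among called, non-overlapping tiles at named genes, and up to 2 per gene list by adjusted p. Members and lists were chosen with earlier results of these data known. Replicate numbers were taken only as names: deviations of same-numbered libraries from their group means correlated at -0.0667 to 0.0453. Results at 2 of the named genes are not reported here.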

Additional observations from a re-analysis of the deposited data

How the results depend on the processing

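The mean-level results kept their direction and their side of the threshold under every alternative run for them. Leaving out 1 library gave 6.97 to 7.80 points for the range of 4 groups, 5.24 to 6.15 for RPC minus Müller glia and 3.33 to 3.92 for its excess over denser tiles. With the replicate number as a block the calls were 1669 higher and 185 lower for NMDA, 151 and 174 for aged, and 3280 and 772 for RPC, each against young, and 2945 for RPC against NMDA, 3849 for RPC against aged and 1125 for NMDA against aged; this pairing changed no count by over 1.5 times.

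Counts that moved by over 1.5 times did so as follows, and the cause was not tested where the alternative itself does not set it. With at least 20 reads per position, which leaves fewer positions, 75 tiles were higher in aged and 2080 higher in RPC than in young, 1971 differed between RPC and NMDA and 2525 between RPC and aged. At 25 points and an adjusted p under 0.01, 435 were higher and 14 lower in NMDA, 7 higher and 3 lower in aged, and 1948 higher and 222 lower in RPC than in young, with 1407 for RPC against NMDA, 2122 for RPC against aged and 243 for NMDA against aged. With no minimum difference 819 were lower in NMDA, 1412 in aged and 1348 in RPC. The 2 groups alone gave 72 higher in aged, limma gave 741 for NMDA against aged, and rescaling gave 97 lower in aged.

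Leaving out 1 library gave 1096 to 1718 higher and 109 to 205 lower in NMDA, 79 to 241 higher and 125 to 224 lower in aged, and 2891 to 3331 higher and 647 to 758 lower in RPC, each against young. It gave 2197 to 2793 for RPC against NMDA, 3476 to 3738 for RPC against aged and 615 to 1127 for NMDA against aged. Genes with a called tile that were also called in RNA numbered 479 to 690 for NMDA, 49 to 100 for aged (39 among genes of at least 10 CPM) and 1205 to 1536 for RPC; the block gave 460, 53 and 1192. Of 794 values for 69 named tile differences 77 lost the call, at 24 of them, and none reversed.

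Depth limits single tiles: at the median sparse position 39 to 97.2 reads were counted, and some named tiles had 30 reads in all in a library.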

Other observations

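The NMDA libraries were uneven in sparse tiles. NMDA replicate 3 was the highest NMDA library in 70.6% of the 1187 tiles higher in NMDA than in aged, where NMDA library medians were 34.1, 34.0 and 44.9% against 13.2, 15.1 and 9.69% in aged libraries. In the 184 tiles lower in NMDA than in young it was the lowest NMDA library in 54.9%. The RNA sum of microglia genes was greatest in NMDA replicate 2, but RNA and DNA samples with the same number were not linked by the labels.

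RPC against NMDA shares no library with aged against young, but both used the same estimate of spread per tile. Of 168 tiles lower in aged than in young 48 were higher and 15 lower in RPC than in NMDA (28.6% and 8.93%), and of 137 tiles higher in aged 22 were higher and 13 lower (16.1% and 9.49%). Over all sparse tiles 12.1% were higher and 5.33% lower in RPC than in NMDA. The difference of these shares was not tested. Over all sparse tiles the differences RPC minus NMDA and aged minus young correlated at r = -0.07, a description across tiles.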
